A study of Mus musculus with 6 samples.

Results

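The genes described here are 41 genes by which macrophages, monocytes, dendritic cells and neutrophils are usually recognised. Each was read from the array probe that carries its symbol alone, and all 41 were found among 19929 genes. They were measured in CD8 T cells sorted from mouse pancreas. The Rip-B7xAI4 group came from mice that carry both the AI4 antigen receptor transgene and Rip-B7x, in which a promoter of the rat insulin gene drives the inhibitory ligand B7x in beta cells, and that were resistant to type 1 diabetes. The AI4 group came from mice with the AI4 receptor and no Rip-B7x, which developed type 1 diabetes. Both groups were on the C57BL/6.H2g7/g7 background and had 3 arrays each, labelled as biological replicates. Pancreata were pooled before sorting with a CD8 antibody and a peptide tetramer, and neither the number nor the age of the mice is stated in the labels. The transgene and the resistance to diabetes go together, so their effects cannot be told apart. Nothing in the labels says whether the pools of a group shared animals, so p-values measure the spread between these arrays.

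Macrophages and monocytes are phagocytes that take up particles, digest them in lysosomes and report infection or damage through Fc receptors, complement and reactive oxygen. Their development depends on the receptor of colony stimulating factor 1 and on the transcription factor PU.1. Dendritic cells take up antigen and show it to T cells, and their cDC1 subset presents antigen on MHC class I to CD8 T cells. In the pancreas, macrophages live in the islets of healthy mice and further myeloid cells join the T cells when the islets are inflamed. None of these cells carries an antigen receptor of the AI4 kind. Several of the genes are not specific to them: Itgam, Itgax, Fcgr2b, Fcgr3, Fcer1g, Tyrobp and Cd300a are also made by some T or NK cells, and Ctsb, Ctsd, Ctsz, Grn and Cst3 by most cell types.

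T cell genes were high in all 6 arrays. The 13 measured of 14 CD8 T cell markers averaged 9.61 to 10.31 log2 in Rip-B7xAI4 and 9.79 to 10.21 in AI4. Median expression over all probes lay between 5.94 and 6.08 log2 in Rip-B7xAI4 and between 6.05 and 6.10 in AI4. The deposited values hold no measure of background, so how far a dim gene lies above it is not known, and differences are given in log2 units without folds. The number of arrays limits the precision. In bulk RNA, a larger number of cells of a type and more RNA per cell cannot be told apart.

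The myeloid genes were high in 2 of the 3 Rip-B7xAI4 arrays and near the AI4 level in the remaining one. Averaged over the 41 genes, expression was 8.62, 6.22 and 8.65 log2 in Rip-B7xAI4 replicates 1, 2 and 3, against 6.25, 6.13 and 6.33 in AI4 replicates 1, 2 and 3. Replicate 2 of Rip-B7xAI4 thus fell within the AI4 range of this average, and replicates 1 and 3 lay more than 2 log2 units above it. Set against each gene's AI4 mean, the median gene stood at 2.25, -0.21 and 2.67 in the 3 Rip-B7xAI4 arrays, while the median over all genes stood at -0.16, -0.12 and -0.07. Replicate 1 was above all 3 AI4 arrays for 39 of the 41 genes, against 21.5% of all genes. Replicate 3 was likewise above them for 39 of 41, against 19.0% of all genes. Replicate 2 was above them for 7 of 41 (17.1%), a share near the 16.4% of all genes, and below them for 16 of 41, against 35.3% of all genes. More than 1 log2 unit above the AI4 mean lay 34, 5 and 32 of the 41 genes in replicates 1, 2 and 3, against 8.33%, 3.86% and 3.97% of all genes. Replicate 2 was the lowest of the 3 Rip-B7xAI4 arrays for 40 of 41 genes, against 28.4% of all genes. The exception was Ctsd.

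**Figure D1:**
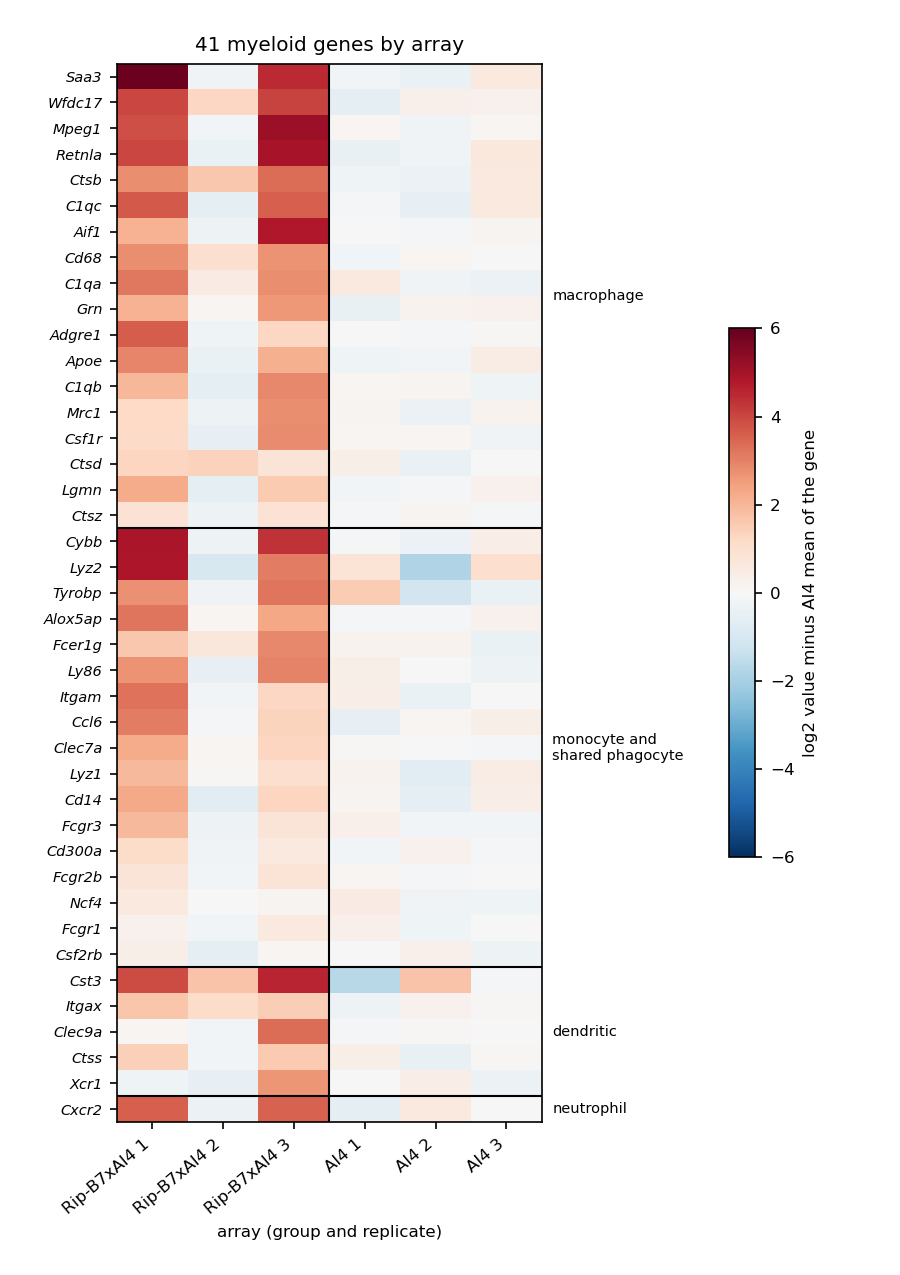
Log2 expression of the 41 genes in each array (columns, 3 Rip-B7xAI4 arrays left of 3 AI4 arrays) minus the gene's AI4 mean, with genes in rows grouped by cell type and ordered by difference. Rip-B7xAI4 replicates 1 and 3 are red in nearly every row, and replicate 2 is pale except in a few rows such as Ctsb, Ctsd, Cst3, Wfdc17 and Itgax.

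The spread within groups was uneven as well. The median SD of the 41 genes was 1.55 in Rip-B7xAI4 and 0.36 in AI4 (n = 3 each), against 0.22 and 0.24 over all genes. The SD was larger in Rip-B7xAI4 for 37 of 41 genes, against 45.5% of all genes. Of 41 genes, 40 had a higher mean in Rip-B7xAI4, against 34.8% of all genes, and the median difference over them was 1.45 against -0.11 over all genes. The difference exceeded 1 log2 unit for 30 of 41, against 3.57% of all genes. Of 39 genes bright enough to be tested, 0 passed an adjusted p of 0.05 in limma (0.00717% of all tested genes passed), with adjusted p between 0.179 and 0.956. Without adjustment 11 of 39 had p under 0.05 with Rip-B7xAI4 higher, against 5.56% of tested genes, and 0 had it with Rip-B7xAI4 lower, against 3.17%. The groups did not overlap for 7 of 39 genes, all with Rip-B7xAI4 higher, against 5.99% of tested genes (4.62% of all genes). These 7 were Cd68, Ctsb, Ctsd, Wfdc17, Fcer1g, Clec7a and Itgax. Among the tested genes Adgre1, Mrc1, Wfdc17, Retnla and Clec7a had AI4 means below the limit for testing and entered only through high Rip-B7xAI4 arrays, so these counts are a description. Without Rip-B7xAI4 replicate 2, 9 of the 39 passed with Rip-B7xAI4 higher, against 0.158% of tested genes, and the groups did not overlap for 36 of 39, against 10.4%, while the median difference over the 39 was 2.33 in place of 1.55. These 9 were Cd68, C1qc, Mpeg1, Wfdc17, Retnla, Saa3, Cybb, Ly86 and Cxcr2, with adjusted p of 0.0269 to 0.0486 and differences of 2.75 to 5.16. The array left out was the lowest of its group for 40 of the 41 genes. Its removal therefore raises these counts by construction, and they too are a description. Wfdc17 and Retnla are also among the genes that entered only through high Rip-B7xAI4 arrays.

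**Figure D2:**
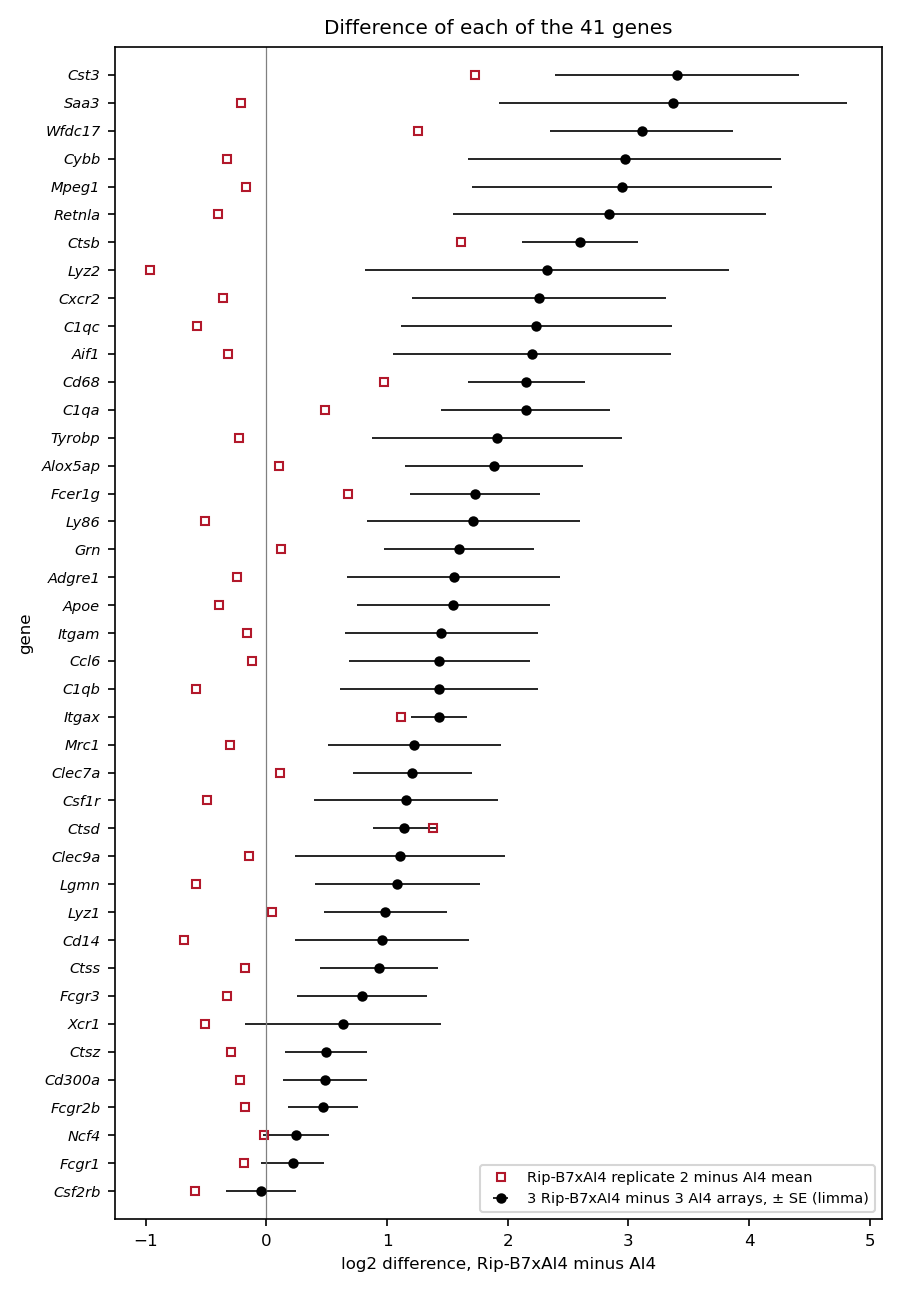
Log2 difference (horizontal axis, Rip-B7xAI4 minus AI4) of each of the 41 genes, with black points for all 6 arrays ± SE from limma (for Clec9a and Xcr1 from a fit of all genes) and open squares for Rip-B7xAI4 replicate 2 minus the AI4 mean. The black points run from -0.04 for Csf2rb to 3.40 for Cst3, and most squares lie near 0 or below it.

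Genes of macrophages had the same 2 high arrays. All 18 had a higher mean in Rip-B7xAI4, with differences of 0.49 to 3.37 and a median of 1.87. Csf1r, the receptor on which macrophage survival depends, stood at 7.11, 5.49 and 8.81 log2 in Rip-B7xAI4 replicates 1, 2 and 3, against 6.08, 6.09 and 5.77 in AI4. The groups overlapped, since replicate 2 was below every AI4 array while replicates 1 and 3 were above them. Adgre1, which encodes a surface protein by which mouse macrophages are stained, was 8.93, 5.06 and 6.57 in Rip-B7xAI4, against 5.34, 5.17 and 5.39 in AI4. Here the order of the 2 high arrays was turned round, with replicate 1 above replicate 3. Csf1r differed by 1.16 ± 0.76 (SE, adjusted p = 0.597) and Adgre1 by 1.55 ± 0.88 (adjusted p = 0.584).

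The first component of complement, C1q, is built from the products of C1qa, C1qb and C1qc, which macrophages make. C1qa stood at 9.49, 6.80 and 9.10 log2 in Rip-B7xAI4, against 6.88, 6.11 and 5.94 in AI4, and differed by 2.15 ± 0.70 (SE, adjusted p = 0.509). Replicate 2 lay just under the highest AI4 array. C1qb and C1qc had the same 2 high arrays and differed by 1.43 ± 0.82 and 2.24 ± 1.12. In both genes replicate 2 was below all AI4 arrays.

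Lysosomal and secreted genes of the macrophage group separated from this pattern in part. Ctsb, which encodes the lysosomal protease cathepsin B, stood at 9.24, 8.05 and 9.81 log2 in Rip-B7xAI4, against 6.19, 6.09 and 7.03 in AI4. Ctsd, which encodes cathepsin D, stood at 9.97, 10.07 and 9.46 in Rip-B7xAI4, against 9.04, 8.31 and 8.73 in AI4. The groups of both genes did not overlap, and for Ctsd replicate 2 was the highest array of all. Ctsb differed by 2.60 ± 0.48 (SE, adjusted p = 0.206) and Ctsd by 1.14 ± 0.26 (adjusted p = 0.337). Cd68, a glycoprotein of phagocyte lysosomes, was 9.17, 7.35 and 9.07 in Rip-B7xAI4, against 6.21, 6.49 and 6.42 in AI4, again without overlap, and differed by 2.15 ± 0.48 (adjusted p = 0.319). Wfdc17, a small secreted protein of activated macrophages, stood at 9.39, 6.65 and 9.47 in Rip-B7xAI4, against 4.84, 5.68 and 5.67 in AI4. It differed by 3.11 ± 0.76 (adjusted p = 0.400), with replicate 2 about 1 log2 unit above the highest AI4 array. Of the 5 genes that most cell types make, replicate 2 exceeded the AI4 mean by 1.62 for Ctsb, 1.38 for Ctsd and 1.73 for Cst3, but by 0.12 for Grn and by -0.29 for Ctsz.

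The other genes of this group were near the AI4 level or below it in replicate 2. Saa3 (an acute phase protein), Mpeg1 (the pore-forming perforin-2), Retnla (a marker of alternatively activated macrophages) and Aif1 (the actin-bundling protein Iba1) differed by 3.37, 2.94, 2.84 and 2.20, with SE of 1.15 to 1.44. Apoe, a carrier of lipids, differed by 1.55 ± 0.80 (SE), Mrc1, the mannose receptor, by 1.23 ± 0.72 and Lgmn, a lysosomal protease, by 1.09 ± 0.68. All 7 were below their AI4 mean in replicate 2, at -0.58 to -0.17.

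Monocyte genes and genes shared by phagocytes had differences from near 0 to about 3 log2 units. Of 17, 16 had a higher mean in Rip-B7xAI4, with a median difference of 1.21. Lyz2, which encodes the lysozyme of phagocytes, stood at 11.40, 5.59 and 9.64 log2 in Rip-B7xAI4, against 7.36, 4.73 and 7.57 in AI4. Its AI4 arrays also spread widely, with replicate 2 more than 2 log2 units below the others, and the difference was 2.33 ± 1.51 (SE, adjusted p = 0.597). Cybb, the catalytic subunit of the phagocyte oxidase, stood at 10.51, 5.31 and 9.98 in Rip-B7xAI4, against 5.58, 5.26 and 6.05 in AI4. Replicate 2 was within the AI4 range and the other 2 arrays lay about 4 log2 units above it, for a difference of 2.97 ± 1.30 (adjusted p = 0.566). Ncf4, a cytosolic subunit of the same oxidase, differed by 0.24 ± 0.28 (adjusted p = 0.701).

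**Figure D3:**
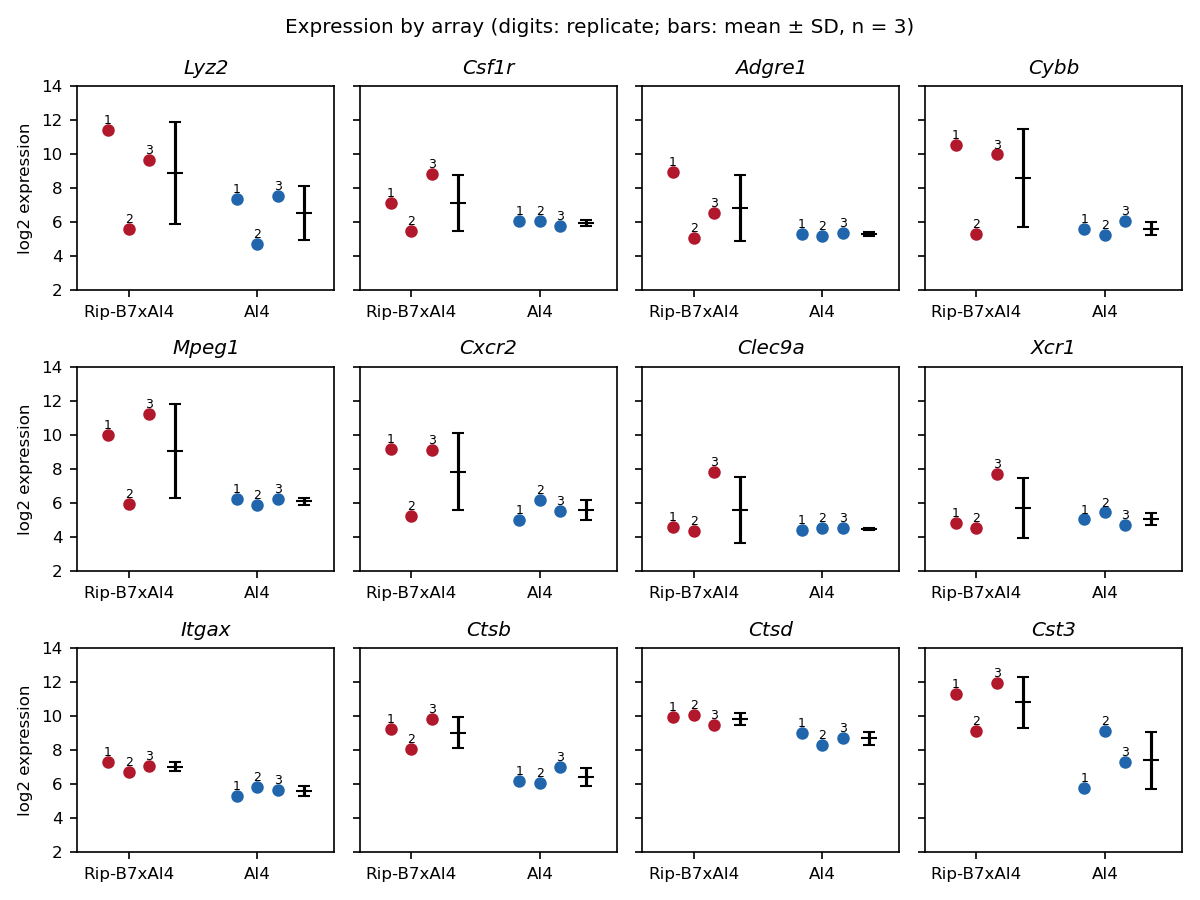
Log2 expression (vertical axis) of 12 genes in each array, Rip-B7xAI4 (red) left of AI4 (blue), with the replicate number over each point and the mean ± SD beside each group (n = 3). Lyz2, Csf1r, Adgre1, Cybb, Mpeg1 and Cxcr2 are high in Rip-B7xAI4 replicates 1 and 3, Clec9a and Xcr1 in replicate 3 alone, and Itgax, Ctsb and Ctsd in all 3 Rip-B7xAI4 arrays.

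Fc receptor genes, which bind antibody, had smaller differences than the adaptors through which they and related receptors signal. Fcgr1, Fcgr2b and Fcgr3 differed by 0.22 ± 0.26, 0.47 ± 0.29 and 0.79 ± 0.54 (SE), and probes for the similar genes Fcgr2b and Fcgr3 may take up each other's RNA. Fcer1g, the gamma chain shared by activating Fc receptors, stood at 7.61, 6.67 and 8.89 log2 in Rip-B7xAI4, against 6.21, 6.19 and 5.58 in AI4. Its groups did not overlap and it differed by 1.73 ± 0.54 (adjusted p = 0.493). Tyrobp, the adaptor DAP12 of myeloid and NK receptors, differed by 1.91 ± 1.04 (adjusted p = 0.582). Replicate 1 of AI4 also had much Tyrobp, at 9.89 against 7.27 and 7.96 in AI4 replicates 2 and 3.

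Of the remaining monocyte and phagocyte genes, Clec7a, the beta-glucan receptor Dectin-1, had groups that did not overlap. It stood at 7.67, 5.56 and 6.74 log2 in Rip-B7xAI4, against 5.52, 5.46 and 5.36 in AI4, with replicate 2 only just above the AI4 arrays, and differed by 1.21 ± 0.49 (SE, adjusted p = 0.566). Alox5ap, which helps make leukotrienes, was 9.18, 6.05 and 8.26 in Rip-B7xAI4, against 5.83, 5.80 and 6.19 in AI4, and differed by 1.88 ± 0.74 (adjusted p = 0.560). Ly86, the partner of a Toll-like receptor relative, was 8.34, 5.14 and 8.61 in Rip-B7xAI4, against 5.99, 5.60 and 5.34 in AI4, and differed by 1.72 ± 0.88 (adjusted p = 0.582). In both genes the groups overlapped through replicate 2. Itgam (integrin CD11b) and the chemokine gene Ccl6 differed by 1.45 ± 0.80 and 1.43 ± 0.75, Cd14 (the lipopolysaccharide co-receptor) by 0.96 ± 0.72, and the inhibitory receptor gene Cd300a by 0.49 ± 0.35. Csf2rb, a receptor chain for GM-CSF, interleukin-3 and interleukin-5, was the 1 gene with a lower mean, by -0.04 ± 0.29, and its sign turned after quantile normalization and after median centring. It has a close paralog, so its value is uncertain.

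Dendritic cell genes fell into separate kinds. Itgax, which encodes the integrin CD11c and is also made by activated CD8 T cells, had the smallest p of the 39 tested genes. It stood at 7.29, 6.73 and 7.10 log2 in Rip-B7xAI4, against 5.29, 5.86 and 5.68 in AI4. All 3 Rip-B7xAI4 arrays lay close together and above AI4, and the difference was 1.43 ± 0.23 (SE, adjusted p = 0.179). Cst3, which encodes the protease inhibitor cystatin C, was 11.32, 9.13 and 11.97 in Rip-B7xAI4, against 5.76, 9.14 and 7.31 in AI4. Its difference of 3.40 ± 1.01 was the largest of the 41 genes (adjusted p = 0.478), yet AI4 replicate 2 and Rip-B7xAI4 replicate 2 were nearly equal. Ctss, the cathepsin that trims the MHC class II invariant chain, was 10.99, 9.40 and 11.14 in Rip-B7xAI4, against 9.94, 9.15 and 9.65 in AI4, and differed by 0.93 ± 0.49 (adjusted p = 0.582).

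The cDC1 genes Clec9a and Xcr1 were high in 1 array. Clec9a, a receptor for dead cells, stood at 4.63, 4.36 and 7.85 log2 in Rip-B7xAI4, against 4.43, 4.56 and 4.53 in AI4. Xcr1, the receptor of the chemokine XCL1 that CD8 T cells secrete, stood at 4.82, 4.57 and 7.75 in Rip-B7xAI4, against 5.05, 5.46 and 4.73 in AI4. Replicate 3 was about 3 log2 units above replicate 1 in both genes, although replicate 1 was as rich as replicate 3 in the 41 genes on average. Both genes were too dim on average to be tested. With no filter on dim genes Clec9a differed by 1.11 ± 0.87 (SE, adjusted p = 0.651) and Xcr1 by 0.63 ± 0.81 (adjusted p = 0.744).

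The sole neutrophil gene of the list, Cxcr2, the receptor that draws neutrophils to chemokines, followed the main pattern. It stood at 9.21, 5.24 and 9.12 log2 in Rip-B7xAI4, against 5.04, 6.20 and 5.57 in AI4. Replicate 2 was within the AI4 range, and the difference was 2.26 ± 1.05 (SE, adjusted p = 0.575).

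The 2 high arrays differed in which myeloid genes stood highest. Of the 41 genes, 22 were higher in replicate 1 and 19 in replicate 3 of Rip-B7xAI4, where 43.0% of all genes were higher in replicate 1. Adgre1, Itgam, Lyz2, Ccl6 and Saa3 were higher in replicate 1, by 2.36, 2.02, 1.76, 1.74 and 1.41. Clec9a, Xcr1, Aif1, Csf1r and Mrc1 were higher in replicate 3, the difference of replicate 1 minus replicate 3 being -3.22, -2.92, -2.71, -1.70 and -1.60. By kind, 12 of 17 monocyte and phagocyte genes were higher in replicate 1 and 4 of 5 dendritic genes in replicate 3, while macrophage genes were divided, 8 against 10. These genes and counts describe 2 arrays and were picked by size after the values were seen.

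**Figure D4:**
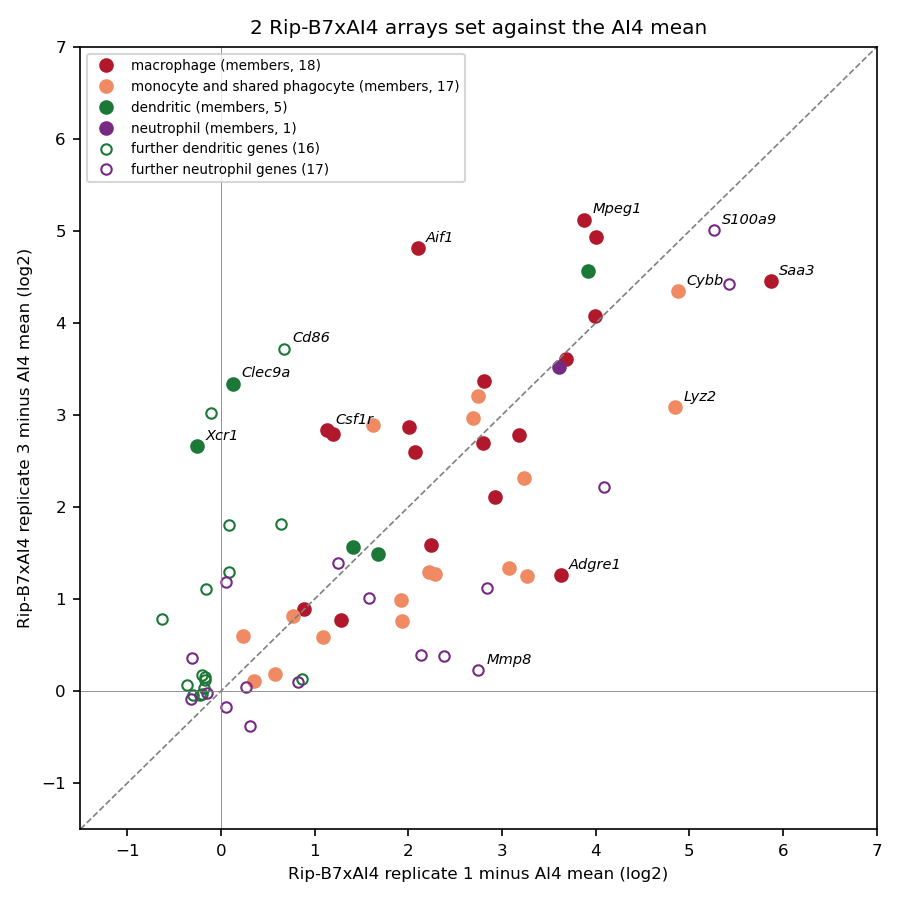
Log2 expression minus each gene's AI4 mean in Rip-B7xAI4 replicate 1 (horizontal axis) and replicate 3 (vertical axis), with filled points for the 41 genes and open points for further dendritic and neutrophil genes, and a dashed line of equality. Clec9a, Xcr1 and Cd86 lie far above the line, and Adgre1, Lyz2 and Mmp8 below it.

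Further myeloid genes, which were not among the 41, were also high in Rip-B7xAI4 replicates 1 and 3 more often than in replicate 2, less evenly so in some lists. Of 28 monocyte and phagocyte genes, replicates 1, 2 and 3 were above all AI4 arrays for 24, 5 and 23, and their medians against the AI4 mean were 1.53, -0.04 and 1.06. Of 21 complement and lysosome genes, the same counts were 15, 3 and 16 and the medians 1.10, 0.02 and 1.08. Of 22 macrophage genes they were 15, 1 and 13, with medians of 0.64, -0.20 and 0.44. These counts compare with the shares of all genes given above for the 3 arrays, 21.5%, 16.4% and 19.0%.

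Few of these genes passed even an unadjusted test, and the counts stand against 5.56% of tested genes with Rip-B7xAI4 higher and 3.17% with it lower. Of the 22 macrophage genes 19 were tested, 3 had an unadjusted p under 0.05 with Rip-B7xAI4 higher and 0 with it lower, and the median difference over the 22 was 0.38. The differences ran from -0.24 to 2.32, with 19 above 0, against 34.8% of all genes, and 3 below. The 3 genes named next had the smallest p of the list. The fractalkine receptor gene Cx3cr1 (7.36, 7.80 and 7.99 log2 in Rip-B7xAI4, against 7.33, 6.99 and 7.11 in AI4) differed by 0.57 ± 0.22 (SE). Its order of arrays was not that of the main pattern, since replicate 2 was above replicate 1. Mertk, a receptor for dying cells, differed by 1.37 ± 0.56 and Lyve1, a hyaluronan receptor, by 0.76 ± 0.31. Mertk is 1 of 4 genes of this list with an AI4 mean below the limit for testing, which entered only through high Rip-B7xAI4 arrays, so the count is a description. Of the 28 monocyte and phagocyte genes 22 were tested, 4 had such a p and 0 the reverse, with a median of 0.85, and 3 entered in that way. Among them Ifi30, a lysosomal thiol reductase, stood at 8.14, 7.31 and 8.14 in Rip-B7xAI4, against 5.94, 5.82 and 5.61 in AI4, and differed by 2.07 ± 0.27 (adjusted p = 0.157). Il1b (interleukin-1 beta) differed by 1.98 ± 0.69 and Plbd1 by 2.53 ± 0.98. Of the 21 complement and lysosome genes 20 were tested, 4 had such a p and 0 the reverse, with a median of 0.77, and 4 entered in that way. The acid lipase gene Lipa differed by 1.57 ± 0.35, Gusb (beta-glucuronidase) by 0.77 ± 0.24 and Cfb (complement factor B) by 1.27 ± 0.49. None of the genes in these lists passed an adjusted p of 0.05 in limma.

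Neutrophil and dendritic cell genes outside the 41 were uneven. Replicates 1, 2 and 3 of Rip-B7xAI4 were above all AI4 arrays for 11, 3 and 9 of 17 neutrophil genes. For the 16 dendritic genes the counts were 4, 2 and 10. The shares of all genes were 21.5%, 16.4% and 19.0%. Both counts of replicate 2, and the dendritic count of replicate 1, were near these shares. Of the 17 neutrophil genes 14 were tested, 3 had an unadjusted p under 0.05 with Rip-B7xAI4 higher and 0 with it lower, against the same 5.56% and 3.17% of tested genes, and the median difference over the 17 was 0.78. The calprotectin genes S100a8 and S100a9 differed by 3.61 ± 1.06 and 3.79 ± 1.08 (SE), and Csf3r, the G-CSF receptor, by 0.94 ± 0.36. S100a8 stood at 10.46, 6.01 and 9.46 log2 in Rip-B7xAI4, against 4.71, 5.24 and 5.16 in AI4, so that replicate 2 was also above AI4. It is 1 of 4 neutrophil genes with an AI4 mean below the limit for testing, which entered only through high Rip-B7xAI4 arrays. The defining neutrophil gene Ly6g stood at 4.56, 4.75 and 5.23 in Rip-B7xAI4, against 5.50, 4.69 and 4.42 in AI4. Of the 16 dendritic genes 12 were tested, of which 2 (Tlr3 and Cd86) entered in that way, 1 had such a p and 0 the reverse, with a median difference of 0.03. A count of 1 in 12 is near the 5.56% of all tested genes. That gene was Irf8, a transcription factor of cDC1, at 6.95, 7.01 and 8.12 in Rip-B7xAI4, against 6.67, 6.17 and 6.08 in AI4, with a difference of 1.05 ± 0.36. For Irf8, replicate 2 was also above all AI4 arrays. The co-stimulatory ligand gene Cd86 (5.79, 5.24 and 8.84 in Rip-B7xAI4, against 4.91, 5.41 and 5.02 in AI4) differed by 1.51 ± 0.88 and Fscn1 by -0.27 ± 0.20. Of these 16, 15 were higher in replicate 3 than in replicate 1 of Rip-B7xAI4, against 57.0% of all genes. None of these genes passed an adjusted p of 0.05.

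Markers of other cells differed less between arrays than the myeloid genes. The mean of 9 measured of 10 B cell genes was 6.07, 5.43 and 6.12 log2 in Rip-B7xAI4 replicates 1, 2 and 3, against 5.51 to 5.84 in AI4, so that it too was higher in replicates 1 and 3. The mean of 6 measured of 7 NK cell genes was 5.45 to 6.01 in Rip-B7xAI4 and 4.94 to 5.0 in AI4, highest in replicate 3. Of these genes only Eomes was bright enough to be tested. It stood at 7.84, 8.88 and 7.03 in Rip-B7xAI4, against 6.61, 6.56 and 7.44 in AI4, and was highest in replicate 2. Whether NK cells or the sorted T cells made these genes was not tested. Means of 10 measured of 11 mast cell, basophil and eosinophil genes were 4.97 to 5.05 in Rip-B7xAI4 and 4.91 to 5.20 in AI4. Those of 7 endothelial genes were 5.34 to 5.71 and 5.71 to 5.94, of 7 stromal genes 5.57 to 5.96 and 5.98 to 6.65, and of 10 measured of 14 acinar and islet genes 5.80 to 5.95 and 5.93 to 5.98, in Rip-B7xAI4 and AI4 in each pair. The CD8 T cell markers averaged 10.11, 10.31 and 9.61 in replicates 1, 2 and 3 of Rip-B7xAI4, against 9.79, 10.20 and 10.21 in those of AI4. The part of other cells in the differences was not tested.

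Promoters were read from RefSeq (GRCm38.p6) for the 32 of the 41 genes with an entry, as windows of 300 bases that end 50 bases past the start of transcription. The 41 genes were listed as myeloid genes, so the motif shares describe the list and not the arrays. The letters GAGGAA, on either strand, form the core that PU.1 prefers. They occurred in 18 of these 32 genes (56.2%) and in 31.3% of all genes with a window. The composite element of PU.1 and IRF8 (the ETS-IRF composite element, either strand) occurred in 4 of 32 (12.5%) and in 3.16% of all. TGANTCA, the letters of AP-1 on either strand, occurred in 9.38% and 8.97%. The first motif may overlap the second, 10 motifs were looked at, and these 3 were picked with their shares known. The 3 promoters below belong to genes with high values in replicates 1 and 3 and show GAGGAA, or TTCCTC where it lies on the opposite strand, in capitals. Cd68 is at chr11:69666121-69666420 (minus strand), Cybb at chrX:9469275-9469574 (minus strand) and Itgam at chr7:128062390-128062689 (plus strand). They are written in the direction of transcription.
Cd68: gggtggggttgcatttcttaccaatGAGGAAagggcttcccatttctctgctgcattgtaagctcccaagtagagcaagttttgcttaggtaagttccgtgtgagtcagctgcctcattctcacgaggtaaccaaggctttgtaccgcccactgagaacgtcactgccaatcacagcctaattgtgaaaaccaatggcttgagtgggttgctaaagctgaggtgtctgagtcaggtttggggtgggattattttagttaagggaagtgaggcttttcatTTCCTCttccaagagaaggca
Cybb: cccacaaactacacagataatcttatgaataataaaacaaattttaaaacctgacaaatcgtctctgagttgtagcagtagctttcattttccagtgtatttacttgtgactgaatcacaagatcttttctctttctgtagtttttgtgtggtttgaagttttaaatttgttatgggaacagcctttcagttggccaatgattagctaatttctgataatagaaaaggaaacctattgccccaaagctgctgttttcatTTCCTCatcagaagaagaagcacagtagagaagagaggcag
Itgam: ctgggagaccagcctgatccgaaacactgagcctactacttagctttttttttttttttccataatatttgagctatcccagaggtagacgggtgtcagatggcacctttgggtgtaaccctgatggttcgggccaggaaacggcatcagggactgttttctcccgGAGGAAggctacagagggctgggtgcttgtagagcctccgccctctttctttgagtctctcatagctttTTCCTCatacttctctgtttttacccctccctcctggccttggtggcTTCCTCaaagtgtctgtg
A match is a run of letters and does not show that a factor is bound there.

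The lysozyme genes Lyz1 and Lyz2 are near-identical neighbours, and probes for one can take up RNA of the other, so both values are uncertain. Lyz1 stood at 8.998, 7.12 and 8.06 log2 in Rip-B7xAI4, against 7.27, 6.43 and 7.53 in AI4, in the same array order as Lyz2 in Rip-B7xAI4 but over a narrower range. It differed by 0.99 ± 0.51 (SE, adjusted p = 0.582). Their promoters are shown so that the likeness of the windows can be seen: 249 of 298 aligned bases were identical (83.6%), a count that includes the 50 bases past the start, and neither held GAGGAA. Capitals mark bases with no identical partner in the other gene. Lyz2 is at chr10:117282223-117282522 and Lyz1 at chr10:117292819-117293118, both on the minus strand.
Lyz2: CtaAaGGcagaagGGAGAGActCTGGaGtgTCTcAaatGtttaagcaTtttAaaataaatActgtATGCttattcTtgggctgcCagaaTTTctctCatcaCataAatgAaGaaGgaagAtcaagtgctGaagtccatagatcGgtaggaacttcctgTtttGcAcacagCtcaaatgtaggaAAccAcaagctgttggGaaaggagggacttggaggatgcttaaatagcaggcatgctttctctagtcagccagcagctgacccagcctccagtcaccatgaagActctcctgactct
Lyz1: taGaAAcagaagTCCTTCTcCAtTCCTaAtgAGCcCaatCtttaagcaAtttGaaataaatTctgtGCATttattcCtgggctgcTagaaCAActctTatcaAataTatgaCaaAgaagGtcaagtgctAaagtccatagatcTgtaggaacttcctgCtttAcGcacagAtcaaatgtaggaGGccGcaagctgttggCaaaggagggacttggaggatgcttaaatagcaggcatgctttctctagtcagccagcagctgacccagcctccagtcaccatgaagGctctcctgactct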

How the data were processed

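Total RNA of sorted cells was hybridised to single-colour Affymetrix arrays. The authors deposited 1 normalized log2 value per probe and array for 28325 probes, and that the scale is log2 was read from the range of the values. Per the submitters' processing notes they used Affymetrix Expression Console, and the labels state neither its version nor its algorithm. Groups and replicate numbers came from the sample titles. Probes were named through the platform annotation (21760 with 1 symbol, 1621 with several, 4944 with none). The brightest probe on average stood for a gene with several, which concerned none of the 41 genes, and gave 19929 genes. The 30% with the lowest mean (at or below 5.471 log2) were not tested, which left 13950. Values were fitted as deposited with limma 3.58.1 (lmFit, eBayes) in R 4.3.3, with a group term and no block, two-sided, adjusted by Benjamini and Hochberg over all tested genes. The fit was tested on simulated data. Alternatives were a replicate block, each array left out, Rip-B7xAI4 replicate 2 alone against AI4, quantile normalization, median centring, other filters, probe means, a trended robust eBayes and array weights. A planned pseudocount did not apply to log2 values. The genes named with values in every array are up to 5 of each kind by smallest p, and Lyz2, Csf1r, Adgre1, Itgax, Clec9a, Xcr1 and Cxcr2. In each further list the genes named are 3 by smallest p, and values in every array are given for only some of them. Lyz1, Ly6g, Cd8a, Cd8b1, Eomes and genes set out by size were added after their values were seen. The members, lists and alternatives were chosen with earlier results of these data known.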

Additional observations from a re-analysis of the deposited data

How the results depend on the processing

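Of the 39 tested genes, 0 passed the adjusted limit in limma under every alternative run except without Rip-B7xAI4 replicate 2, where 9 did. That array was the lowest of its group for 40 of the 41 genes, so the 9 are a description. With each array left out in turn, the count past the adjusted limit ran from 0 to 9, the count with an unadjusted p under 0.05 and Rip-B7xAI4 higher from 6 to 36, against 11 with all arrays, the count of genes whose groups do not overlap from 7 to 36, and the median difference from 1.17 to 2.33, against 1.55. The unadjusted count was 36 without Rip-B7xAI4 replicate 2 (5.84% of all tested genes) and 6 without AI4 replicate 3 (6.74%). It was 7 without Rip-B7xAI4 replicate 1 (3.49%) and 7 without Rip-B7xAI4 replicate 3 (6.85%). That count was 22 with the replicate block (5.53% of all tested genes) and 5 with array weights (8.97% of all tested genes), where the median difference was 0.79, and over all alternatives it ran from 5 to 36. With an array left out the groups of 8.02% to 12.3% of all tested genes did not overlap with Rip-B7xAI4 higher, and without Rip-B7xAI4 replicate 3 the 7 of 39 stood against 12.3%. Over all tested genes 1 passed the adjusted limit in the reported fit, 38 with array weights, 22 in the absence of Rip-B7xAI4 replicate 2, 2 when AI4 replicate 1 was left out, and 0 with the replicate block, with replicate 2 alone or with any other array left out. Titles give both groups the replicate numbers 1 to 3. Over all tested genes, same-numbered arrays had correlations of deviations of -0.08, 0.06 and -0.22, and differently numbered arrays -0.10 to 0.20. With 3 arrays per group, these values cannot show whether the numbers pair the arrays. With Rip-B7xAI4 replicate 2 alone against AI4, where its spread was taken to equal that of AI4, the median difference was -0.21. The median over all tested genes was -0.09, so most of them were also below their AI4 mean in that array. As a description, 26 of the 39 genes turned to a negative difference in that setting. These were Lyz2 -0.96, Cd14 -0.69, C1qb -0.58, Lgmn -0.58, C1qc -0.57, Ly86 -0.51, Csf1r -0.49, Retnla -0.40 and Apoe -0.39 in log2 units, then Cxcr2 -0.36, Cybb -0.33, Fcgr3 -0.32, Aif1 -0.32, Mrc1 -0.30, Ctsz -0.29, Adgre1 -0.24, Tyrobp -0.22 and Cd300a -0.22, and the smallest were Saa3 -0.21, Fcgr1 -0.18, Ctss -0.18, Fcgr2b -0.17, Mpeg1 -0.17, Itgam -0.16, Ccl6 -0.12 and Ncf4 -0.0189. Csf2rb had a value of 0.0149 after quantile normalization and 0.0238 after median centring, and 0.11 when AI4 replicate 2 was left out and 0.23 when Rip-B7xAI4 replicate 2 was. Cd300a had -0.0045 with array weights. Quantile normalization, median centring, both other filters, probe means and the trended robust fit changed no other sign. The 3 arrays per group and a lack of any background measure limit what dim genes such as Clec9a and Xcr1 can show.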
